A study of Mus musculus with 3 samples.

Results

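The genes described here are 9 genes of Notch output and its nuclear machinery, namely Hey1, Hey2, Heyl, Hes1, Hes5, Hes6, Nrarp, Lfng and Rbpj. They were taken by symbol from the count tables, which list 23337 genes, and all 9 were present. RNA was sequenced from heart tubes of mouse embryos at day 9.5, an age at which the looped heart tube carries an endocardial lining inside the myocardium. Of 3 libraries, 2 were Sox7-null (Sox7 -/-; null tubes 1 and 2 below) and 1 was wild type, and no strain or treatment is given. The comparison asks how the level of these transcripts differed in heart tubes without SOX7, a transcription factor of endothelial and endocardial cells. The labels do not say whether each tube came from 1 embryo or a pool, so p-values measure only the spread between these libraries, which may be technical.

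Notch is a receptor that is cut when a ligand on a neighbouring cell binds it. The released intracellular part joins the DNA-binding protein RBPJ and a Mastermind coactivator, and switches on genes that RBPJ otherwise holds down together with corepressors. The best known of these targets are the Hes and Hey genes, which encode basic helix-loop-helix repressors that in turn silence other genes. In the embryonic heart Notch acts in the endocardium, where it promotes cushion formation and trabeculation, and Hey genes also mark the chambers: Hey1 the atrium and Hey2 the ventricle, where they keep atrioventricular canal genes out of chamber myocardium.

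RBPJ recognises the core TGGGAA, and the stretches before the starts of the genes are shown first because they carry or lack these letters. RefSeq promoter entries (GRCm38.p6) were at hand for 6 of the 9 genes, all but Hey1, Heyl and Hes1. The window searched was the 250 bases before the start, on both strands, where TTCCCA is TGGGAA read on the other strand. Capitals mark these letters, each sequence is written 5′ to 3′ on the strand of its gene, and bases inside an annotated exon of the same gene were cut off. Hey2 is shown on the minus strand at chr10:30842802-30843033, Hes5 on the plus strand at chr4:154960673-154960922, Lfng on the plus strand at chr5:140607091-140607319 and Rbpj on the plus strand at chr5:53590096-53590213.
Hey2: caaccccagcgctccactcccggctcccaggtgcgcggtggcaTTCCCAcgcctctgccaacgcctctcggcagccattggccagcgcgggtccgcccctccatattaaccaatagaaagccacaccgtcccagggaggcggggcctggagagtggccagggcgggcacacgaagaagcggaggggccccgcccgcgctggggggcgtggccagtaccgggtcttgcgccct
Hes5: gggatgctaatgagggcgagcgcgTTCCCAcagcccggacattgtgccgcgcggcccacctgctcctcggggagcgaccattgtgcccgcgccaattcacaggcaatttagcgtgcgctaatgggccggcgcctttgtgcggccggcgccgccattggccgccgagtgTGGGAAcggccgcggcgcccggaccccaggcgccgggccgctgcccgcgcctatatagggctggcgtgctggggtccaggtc
Lfng: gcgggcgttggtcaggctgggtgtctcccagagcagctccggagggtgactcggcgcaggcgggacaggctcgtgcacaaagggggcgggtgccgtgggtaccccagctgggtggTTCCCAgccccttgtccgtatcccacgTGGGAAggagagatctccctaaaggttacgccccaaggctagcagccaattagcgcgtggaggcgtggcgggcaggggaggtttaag
Rbpj: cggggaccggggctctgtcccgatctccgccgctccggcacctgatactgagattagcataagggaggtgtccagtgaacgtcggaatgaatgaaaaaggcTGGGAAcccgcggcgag

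The Hey2 window held 1 match, 207 to 202 bases before the start. The Hes5 window held 2 matches on opposite strands, at 226 to 221 and 82 to 77 bases before the start, and the Lfng window held 2, at 135 to 130 and 108 to 103. The Rbpj window also held 2, of which the one in the stretch shown lies 149 to 144 bases before the start. No match was in the windows of Hes6 and Nrarp. Hes6 and Rbpj also have a second start each, whose windows held 0 and 1 matches. The match at the second Rbpj start is not a further site. It is the one 65 to 60 bases before the first start, in the part that was cut off. Counted by gene, TGGGAA was thus in 4 of 6, a share that is not independent of listing the genes as Notch output. Of all 32851 RefSeq windows of the same length, each counted singly, 21.6% held TGGGAA. The longer GTGGGAA, which contains it, was in 3 of 6 (Hey2, Hes5 and Lfng), against 5.42%. Of the letters AACAAT and ACAATG, which belong to the core that SOX proteins bind and overlap each other, AACAAT was in 1 window (Nrarp; 9.42% of all windows) and ACAATG in 1 (Hes5; 10.7%). These are matches of letters, and whether a factor binds there was not measured.

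Reads assigned to genes numbered 13139823 to 13789388 per library. Sox7 had 2 and 7 reads in the null tubes and 222 in the wild-type tube, as the labels say. The atrial light chain gene Myl7 had 68721 to 88558 reads and the ventricular Myl2 52659 to 80119, so all 3 libraries carried heart muscle RNA. The extraction protocol speaks of retinal organoids although the tissue is given as heart tube, and the eye and neural gene Pax6 had 14 to 24 reads. In RNA of a whole tube, fewer cells of a type and less RNA per cell cannot be told apart.

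Of the 9 genes, 8 passed the filter on low counts and Hes5 did not, having 0 reads in every library. Hey2 and Heyl were higher in the null tubes, each by a narrow margin, and none of the 8 was lower. Of all 13334 genes in the test, 11.3% rose and 10.2% fell at an edgeR p under 0.05 after Benjamini-Hochberg (BH) adjustment over all of them, so 2 of 8 higher and 0 of 8 lower is read against those shares. At an unadjusted p under 0.05, 3 were higher (Rbpj in addition) and 0 lower, beside 18.3% and 17% of all genes tested. The median log2 fold change of the 8 was 0.19, with 0.28 in null tube 1 and 0.078 in null tube 2, beside 0.014 over all genes tested. Both null tubes lay above the wild-type tube for 5 of the 8 genes and below it for 2, and 43.1% and 43.0% of all genes tested did so. Hes6 is counted above and Nrarp below, although null tube 2 was level with the wild-type tube in both.

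**Figure D1:**
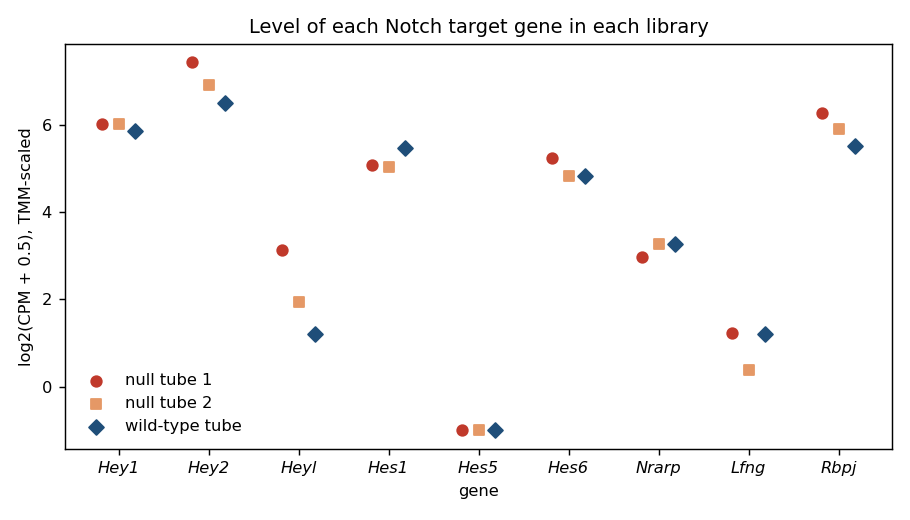
Level of each of the 9 genes in each library, as log2(CPM + 0.5) with TMM scaling, one point per library (red circle null tube 1, orange square null tube 2, blue diamond wild type). Hey2 and Heyl are highest in null tube 1, lower in null tube 2 and lowest in the wild-type tube, Hes1 is highest in the wild-type tube, and Hes5 is at 0 reads in all 3.

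Levels were compared between genes as CPM (read counts scaled to a common library size) per kilobase of annotated exon. In the wild-type tube the order of this level was Hes1 at 21.5, Hey2 at 19.6, Hey1 at 17.7 and Hes6 at 15.4, followed by Nrarp at 3.56, Rbpj at 3.55, Lfng at 0.723 and Heyl at 0.354. In both null tubes Hey2 came first, with 37.3 and 26.1 CPM per kilobase. Hey1 (19.7 and 19.7) and Hes1 (16.2 and 15.9) lay within the range of Hes6 there (20.5 and 15.5). The spread of the null tubes thus did not separate Hes6 from either, while Hey1 lay above Hes1 in both tubes. At the low end, that spread did not separate Heyl (1.62 and 0.653) from Lfng (0.740 and 0.319). The exons of Rbpj add up to 12750 bases over all its annotated transcripts, which lowers its level per kilobase.

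The Hey genes encode repressors that act downstream of Notch in endothelium and in chamber muscle. Hey2, the ventricular member, had 2312 and 1655 reads in the null tubes and 1191 in the wild-type tube. Its level was 172 and 120 CPM against 89.8 CPM, so both null tubes were above the wild-type tube and null tube 1 was well above null tube 2. The mean of the null tubes was 146 ± 36.4 CPM (SD, n = 2), and the log2 fold change was 0.70 ± 0.23 (SE; edgeR BH-adjusted p = 0.0444). Taken singly, null tube 1 stood at a log2 ratio of 0.93 to the wild-type tube and null tube 2 at 0.42. The match in its promoter window is the single one shown above.

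Hey1, the atrial member of the family, had 869 and 886 reads in the null tubes and 765 in the wild-type tube. These counts came to 64.5 and 64.3 CPM against 57.7 CPM, close together in the null tubes and a little above the wild-type tube. The log2 fold change of Hey1 was 0.16 ± 0.20 (SE; edgeR BH-adjusted p = 0.607), within the error of the fit. Set against Hey1 in the same library, which needs no scaling between libraries, Hey2 made up 72.7% of the reads of the pair in null tube 1 (95% exact binomial interval 71.1 to 74.2), 65.1% in null tube 2 (63.2 to 67.0) and 60.9% in the wild-type tube (58.7 to 63.1). The 3 intervals did not overlap, but they cover counting error only, and the null tubes differed from each other by more than null tube 2 differed from the wild-type tube.

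**Figure D2:**
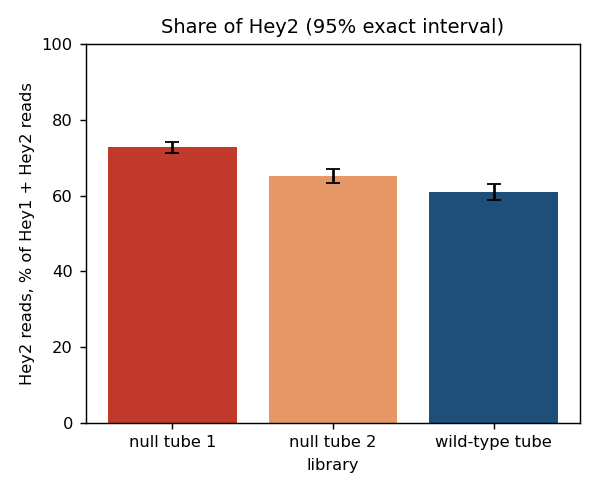
Hey2 reads as a percentage of Hey1 plus Hey2 reads, one bar per library, with 95% exact binomial intervals that cover counting error only. The share is 72.7% in null tube 1, 65.1% in null tube 2 and 60.9% in the wild-type tube.

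Heyl, the third Hey gene, known from vascular smooth muscle and cushion tissue, was the member with the highest fold change and among those with the fewest reads. It had 112 and 46 reads in the null tubes and 24 in the wild-type tube, or 8.31 and 3.34 CPM against 1.81 CPM. Both null tubes were above the wild-type tube, and null tube 1 was far above null tube 2. The log2 fold change was 1.68 ± 0.56 (SE; edgeR BH-adjusted p = 0.0498). On summed counts the level was 3.20-fold higher (95% exact interval for counting error 2.08 to 5.15). The log2 ratio to the wild-type tube was 1.93 in null tube 1 and 0.73 in null tube 2, so the size of the change rests mainly on null tube 1. The 3 Hey genes together came to 244 and 188 CPM in the null tubes and 149 CPM in the wild-type tube.

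Hes1, a Notch target in many tissues whose protein also represses its own gene, had 446 and 446 reads in the null tubes and 580 in the wild-type tube. Its level was 33.1 and 32.4 CPM against 43.7 CPM, with the null tubes together and both below the wild-type tube. The log2 fold change was -0.42 ± 0.20 (SE) and did not pass the test (edgeR BH-adjusted p = 0.162). Hes6, which encodes a family member that binds HES1 and opposes it, had 499, 385 and 370 reads in null tube 1, null tube 2 and the wild-type tube. That is 37.0, 27.9 and 27.9 CPM, so null tube 2 was level with the wild-type tube and the log2 fold change of 0.22 ± 0.23 (SE; edgeR BH-adjusted p = 0.543) came from null tube 1. Hes5, the Notch target of neural progenitors, had 0 reads in all 3 libraries, which allows a level of up to 0.223, 0.218 and 0.226 CPM at a floor of 3 counts per library. Of the genes with 2 TGGGAA matches in the window (Hes5, Lfng and Rbpj), Lfng and Rbpj had reads in every library.

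**Figure D3:**
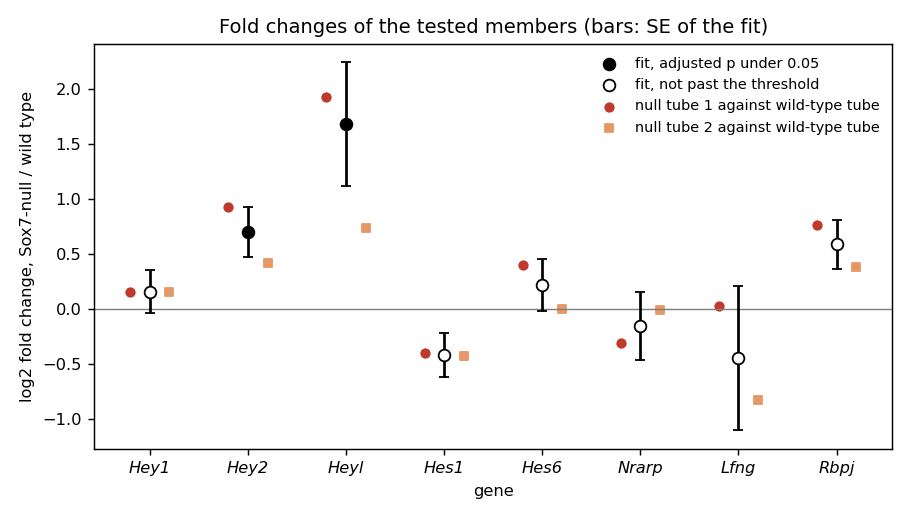
Log2 fold change of Sox7-null against wild type for the 8 tested genes. Black circles with SE bars are the fit (filled where the adjusted p was under 0.05), and red circles and orange squares are the ratios of null tube 1 and null tube 2 to the wild-type tube. Hey2 and Heyl are filled, and in both the 2 null tubes lie far apart.

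Nrarp, whose small protein binds the active Notch complex and dampens it, had 99 and 126 reads in the null tubes and 122 in the wild-type tube. The log2 fold change was -0.16 ± 0.31 (SE; edgeR BH-adjusted p = 0.757), and null tube 2 was level with the wild-type tube (9.14 and 9.20 CPM). An annotated noncoding gene overlaps 2051 exonic bases of Nrarp on the other strand, and since the strand setting of the counting is not given in the sources used here, its reads cannot be told apart from those of Nrarp. Lfng, a fringe enzyme that adds sugar to Notch receptors and shifts which ligand they answer, had 25, 11 and 24 reads in null tube 1, null tube 2 and the wild-type tube. Null tube 1 was level with the wild-type tube and null tube 2 below it, and the log2 fold change of -0.45 ± 0.66 (SE; edgeR BH-adjusted p = 0.667) changed sign with the library. The counting interval of the fold of Lfng, 0.423 to 1.28, is wide and includes no change. Neither a difference in Lfng nor its absence was thus shown.

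Rbpj, the DNA-binding partner of Notch, had 1038 and 812 reads in the null tubes and 600 in the wild-type tube. Its level was 77.0 and 58.9 CPM against 45.2 CPM, both above the wild-type tube. The log2 fold change was 0.59 ± 0.22 (SE; edgeR BH-adjusted p = 0.0793) and did not pass. As with Hey2, null tube 1 (log2 ratio 0.76) stood further from the wild-type tube than null tube 2 (0.38). Annotated processed pseudogenes of Rbpj exist, and reads shared with such near-identical copies leave its count uncertain. Reads without a unique place were 22.3% of the file in the wild-type tube and 10.4% and 11.6% in the null tubes, and the part of this in the levels was not tested.

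The calls of Hey2 and Heyl lay close to the threshold and depended on the test. Hey2 passed under 2 of 6 other settings and Heyl under 1 of the 5 in which it was tested. Over these settings of edgeR, limma-voom and DESeq2 the adjusted p ranged from 0.0187 to 0.215 for Hey2 and from 0.0493 to 0.247 for Heyl. The share of all genes called higher was 11.4% with DESeq2 size factors in edgeR, 8.42% with a trend on transcript length and GC content removed, 11.8% at a minimum mean of 5 CPM, 0% when every gene with at least 1 read was tested, 9.39% with limma-voom and 8.3% with DESeq2. With DESeq2 the adjusted p was 0.0583 for Hey2 and 0.151 for Heyl, and with limma-voom 0.0553 and 0.134. The fold changes ranged from 0.68 to 0.92 on the log2 scale for Hey2 and from 1.44 to 1.69 for Heyl, but these settings all use the same 3 libraries. Without null tube 1, Hey2 stood at 0.42 and Heyl at 0.73, and without null tube 2 at 0.93 and 1.93.

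**Figure D4:**
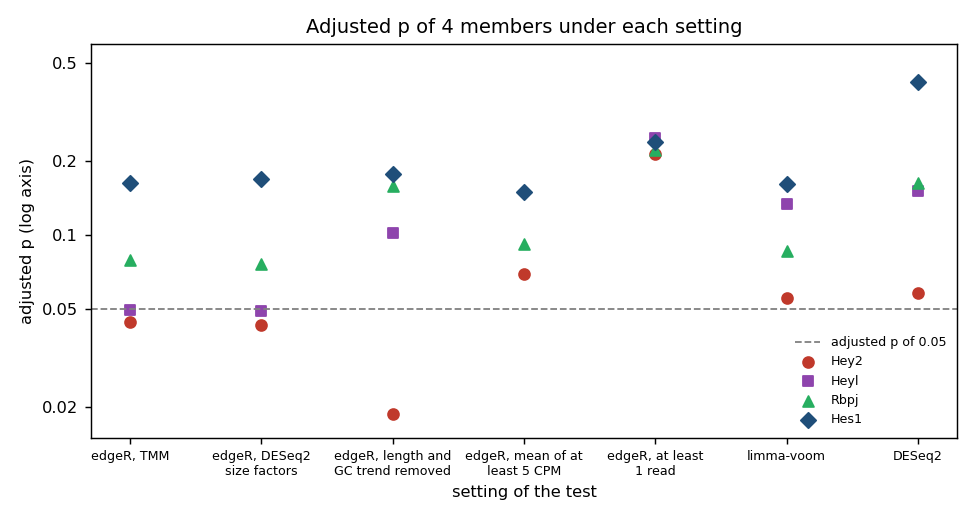
Adjusted p (log axis) of Hey2, Heyl, Rbpj and Hes1 under the main test (edgeR, TMM) and 6 other settings, one point per gene and setting, with the threshold of 0.05 as a dashed line. Hey2 is below the line in 3 of 7 settings, Heyl in 2 of 6, and Rbpj and Hes1 in none.

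The receptors and ligands that feed these targets were read next. Of 4 receptors 2 rose and 0 fell, with a median log2 fold change of 0.78, which was 0.27 with 1 higher after removal of the length and GC trend. Notch3, the receptor of mural cells, had 28.6 and 23.4 CPM in the null tubes against 9.28 CPM in the wild-type tube, and Notch4, an endothelial receptor, had 11.8 and 8.13 CPM against 4.68 CPM (log2 fold change 1.09 ± 0.36, SE; edgeR BH-adjusted p = 0.0458). Notch1, the main endocardial receptor, had 25.8, 20.8 and 24.8 CPM in null tube 1, null tube 2 and the wild-type tube, and Notch2 had 19.1, 13.8 and 11.8 CPM. Their log2 fold changes were -0.09 ± 0.23 and 0.47 ± 0.28 (SE; edgeR BH-adjusted p = 0.821 and 0.251). In that setting Notch4 stood at 0.56 (edgeR BH-adjusted p = 0.306), and with DESeq2 its adjusted p was 0.191.

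Among 7 ligands 5 were tested, of which 1 rose and 1 fell. Jag2 had 168 and 182 reads in the null tubes against 70 (log2 fold change 1.28 ± 0.31, SE; edgeR BH-adjusted p = 0.0113), but did not pass with DESeq2 (adjusted p = 0.0559) or with the length and GC trend removed (edgeR BH-adjusted p = 0.0908). Dll1, a ligand of somites and the nervous system, had 2 and 13 reads against 48, a level 6.58-fold lower on summed counts (95% exact interval for counting error 3.62 to 12.6). Dll4, the ligand of endocardium and arterial endothelium, had 13.1, 8.56 and 7.62 CPM in null tube 1, null tube 2 and the wild-type tube, a log2 fold change of 0.51 ± 0.33 (SE; edgeR BH-adjusted p = 0.302). Jag1 had 53.3, 61.2 and 61.1 CPM (-0.09 ± 0.20) and Dlk1, a noncanonical ligand, 41.0, 43.0 and 38.8 CPM (0.12 ± 0.21). Dll3 and Dlk2 had 1 to 4 reads per library and were not tested.

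Of 6 genes that glycosylate Notch besides Lfng, 0 rose and 0 fell, with log2 fold changes from -0.02 to 0.29, the highest being that of Xxylt1. Mfng, the fringe gene of endothelium, had 29, 34 and 31 reads. Of 10 genes that cut the receptor, 2 rose and 0 fell. They were Furin, which makes the first cut (log2 fold change 1.01 ± 0.21, SE; edgeR BH-adjusted p = 0.00507), and Ncstn, a subunit of gamma-secretase (1.05 ± 0.22; edgeR BH-adjusted p = 0.00565). Furin stood at 0.49 with the length and GC trend removed (edgeR BH-adjusted p = 0.122). The secretase genes Psenen (-0.60) and Psen2 (-0.11) and the sheddase gene Adam10 (-0.01) did not pass. Among 8 coactivator genes 2 rose and 0 fell, both for Mastermind proteins: Maml1 at 0.89 ± 0.25 and Maml3 at 1.51 ± 0.38 (SE; edgeR BH-adjusted p = 0.0234 and 0.0145; DESeq2 adjusted p = 0.0580 and 0.0663). Maml2 stood at -0.33 ± 0.22. Without the length and GC trend 1 coactivator gene rose and 1 fell, as Maml1 lost its call (edgeR BH-adjusted p = 0.0996) and Crebbp gained one (-0.87, edgeR BH-adjusted p = 0.0213).

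Over 7 lists of other pathway genes, 64 of 67 genes were tested, of which 11 rose and 3 fell, or 21.9% of those tested, beside 21.6% of all genes. With the length and GC trend removed, 4 rose and 6 fell, and 15.3% of all genes were called. The list median was 0.23, and 0.077 with the trend removed. Across the 3 libraries the tested pathway genes with profiles nearest to Hey2 were Maml1 and Mib1, at Euclidean distances of 0.159 and 0.173 between log2(CPM + 0.5) values centred on each gene's mean. Those nearest to Heyl were Maml3 and Mib2, at 0.526 and 0.527. A profile over 3 libraries is a thin basis for likeness, and it was computed among 64 genes.

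**Figure D5:**
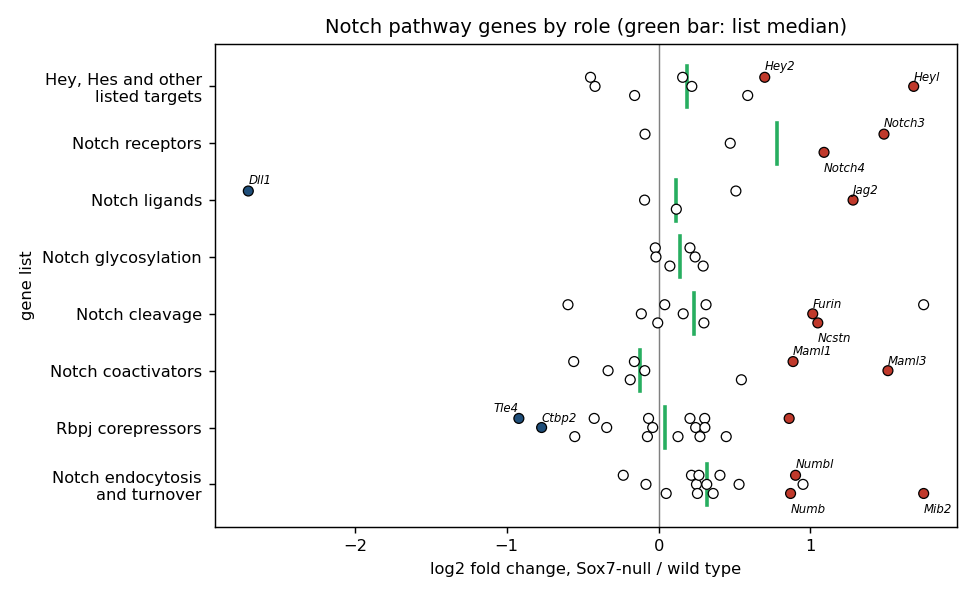
Log2 fold change of Sox7-null against wild type for each tested gene, in rows by role in the Notch pathway. Red and blue points passed at an adjusted p under 0.05 (higher and lower), white points did not, and green bars are list medians; coloured points that the text names carry their symbol. Most lists straddle 0, with 11 red and 3 blue points outside the top row.

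Other repressors of the same structural class were examined beside the members. Of 6, 3 were tested and 2 rose. Bhlhe41 had 281 and 152 reads in the null tubes against 17 in the wild-type tube (log2 fold change 3.63 ± 0.48, SE; edgeR BH-adjusted p = 0.000543), and Bhlhe40 had 1724 and 1000 against 102. Both are known to respond to low oxygen and the body clock and are not regular Notch targets. Hes7, the oscillating gene of the presomitic mesoderm, had 11, 16 and 15 reads, and Hes2 and Helt had 0 in all 3 libraries.

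Of 19 further cardiovascular genes linked to Notch, 4 rose and 3 fell, with a median of -0.21. Unc5b, a guidance receptor of tip and arterial cells, had 128 and 96.7 CPM against 58.7 CPM (log2 fold change 0.94 ± 0.22, SE; edgeR BH-adjusted p = 0.0107; 0.54 and edgeR BH-adjusted p = 0.112 with the length and GC trend removed). Tgfb2, a cushion growth factor, rose by 0.65 ± 0.19 (SE; edgeR BH-adjusted p = 0.0275). Among those with the smallest p, Gja4, an arterial connexin gene, had 95 and 92 reads against 384, and Wnt4, a cushion ligand gene, 2.74 and 1.45 CPM against 16.3 CPM (-2.95 ± 0.37, SE; edgeR BH-adjusted p = 0.000416). For Bmp10, a ligand gene of trabecular muscle, the counts were 610 and 413 reads against 84, and for Flt4, a receptor of lymphatic and embryonic endothelium, the levels were 19.4 and 17.6 CPM against 7.32 CPM. Efnb2, an arterial ephrin, and Snai1, a Notch target in cushion endocardium, had log2 fold changes of 0.54 ± 0.20 and -1.02 ± 0.40 and did not pass (SE; edgeR BH-adjusted p = 0.0673 and 0.0845). The genes thus moved in both directions.

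Genes that Hey factors are known to hold down in the heart were read as well. Of 8, 1 rose and 0 fell, and the riser was Nppa, the atrial natriuretic peptide gene, with 2190 and 1198 CPM against 195 CPM. Tbx2, which marks the atrioventricular canal, had 20.7, 23.3 and 23.8 CPM in null tube 1, null tube 2 and the wild-type tube (log2 fold change -0.12 ± 0.22, SE; edgeR BH-adjusted p = 0.753). Bmp2, its upstream ligand, had 49.6, 63.1 and 77.5 CPM (-0.46 ± 0.21, SE; edgeR BH-adjusted p = 0.134) and Tbx3 17.4, 21.8 and 29.6 CPM (-0.60 ± 0.23, SE; edgeR BH-adjusted p = 0.0804). Tbx5, a factor of the atria and left ventricle, went the other way, with 76.9, 82.7 and 53.7 CPM (0.57 ± 0.20, SE; edgeR BH-adjusted p = 0.0588). With the trend on length and GC content removed, 1 of the 8 rose and 2 fell, the fallers being Tbx3 (-0.87, edgeR BH-adjusted p = 0.0231) and Gata6 (-0.58, edgeR BH-adjusted p = 0.0401). Of 8 genes held down by Hes factors, 5 proneural genes had 0 reads throughout, the cell cycle inhibitor gene Cdkn1b rose (1.19 ± 0.23, SE; edgeR BH-adjusted p = 0.00384) and Cdkn1c fell (-0.63 ± 0.14, SE; edgeR BH-adjusted p = 0.00698).

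Markers of the cell types that make these transcripts were set beside them. The summed level of 20 endothelial and endocardial markers was 898 and 879 CPM in the null tubes and 856 CPM in the wild-type tube, and 4 of 20 rose and 3 fell. Those with the smallest p were Pecam1 (96.7 and 70.5 CPM against 39.8 CPM) and Flt1 (42.4 and 31.6 against 20.1) among the risers, and Tek (35.5 and 50.9 against 81.2) and Cd34 (40.1 and 39.6 against 64.5) among the fallers. Without the length and GC trend 2 of the 20 rose and 3 fell, and Flt1 lost its call (edgeR BH-adjusted p = 0.128). Of 9 compact and ventricular myocardium markers, 2 rose (Myh7 and Tbx20) and 1 fell (Myl2), and Irx4 had 42.5, 45.4 and 50.5 CPM. Their sum was 9381, 7197 and 7429 CPM in null tube 1, null tube 2 and the wild-type tube, of which most was Myh7 and Myl2. Without that trend 1 rose and 0 fell, since Tbx20 and Myl2 did not pass (edgeR BH-adjusted p = 0.122 and 0.123), and Tbx20 also missed with DESeq2 (adjusted p = 0.0573). Of 10 genes listed as mural and smooth muscle markers, 3 rose (Tagln, Cnn1 and Mcam) and 0 fell. Tagln stood at 1514 and 1819 CPM in the null tubes against 1032 CPM, but Myh11 at only 1.41 and 2.47 CPM against 1.66 CPM. Which cells of the tube made the listed transcripts was not tested. The 10 summed to 5235, 6733 and 4612 CPM, of which most was Acta2 and Tagln, and Acta2 itself did not pass. The pericyte markers Pdgfrb (13.7, 9.36 and 8.07 CPM) and Rgs5 (40, 52 and 43 reads) did not pass either. Nor did Myh11 (19, 34 and 22 reads), Cspg4 and Abcc9 (log2 fold changes of 0.22, 0.02 and 0.01), and Kcnj8 had too few reads for the test. Mcam lost its call without the trend (edgeR BH-adjusted p = 0.0642). The part of these cell types in the changes of Hey2 and Heyl was not tested.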

How the data were processed

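The authors deposited 1 file per library, which holds raw read counts by mouse gene symbol. Per the labels' protocols, Trizol RNA was made into stranded total RNA libraries. Per the submitters' processing notes, the authors used CASAVA, TopHat2, HTSeq and DESeq2 1.10.1, and the builds in these notes, hg19 and GRCh37, are human. The mouse build that was counted on is thus open, and coordinates are given only for RefSeq sequences. The summary lines of each file, with reads in no feature (8.10% and 8.52% of the file in the null tubes, 11.7% in the wild-type tube), ambiguous (1.97% to 2.29%) or not unique (10.4% and 11.6%, and 22.3% in the wild-type tube), were left out.

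Counts were tested with edgeR 4.0.16 (glmQLFit, glmQLFTest) in R 4.3.3, after TMM scaling and filterByExpr with a minimum count of 10, which kept 13334 genes. With 1 residual and 11.8 prior degrees of freedom, the fit takes the single wild-type tube to be as variable as the null tubes. No pairing was used. SE is the log2 fold change divided by the square root of F. Alternatives were DESeq2 1.42.0 (size factors, and its own test), limma-voom 3.58.1, 2 other filters, a length and GC trend (mgcv 1.9.3, GENCODE M21) removed, and each null tube left out. The scripts were tested on simulated data with the same 2 libraries against 1. There 41 of 99 genes changed by 1 on the log2 scale were recovered, and 92 of 97 changed by 2. A member that did not pass is thus not shown to be unchanged. Exact intervals and floors cover counting error alone, as PCR copies of a molecule were not marked. The 9 genes and 17 lists (191 entries, all matched, 2 through an older symbol) were chosen with earlier results of these data known. Named were all 9 genes, Sox7, receptors and ligands, up to 4 genes of each list by smallest p, and genes a list's description needs. Some genes of these lists are counted but not reported singly here.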

Additional observations from a re-analysis of the deposited data

How the results depend on the processing

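With 2 libraries against 1, the tests lean on a spread shared across genes, and every ratio uses the same wild-type library. Of the 2 members higher in the main test, 2 remained with DESeq2 size factors in edgeR and 1 (Hey2) with the length and GC trend removed. With DESeq2, with limma-voom, at a minimum mean of 5 CPM (where Heyl was not tested) and when every gene with at least 1 read was tested, 0 remained. No member was lower in any of these. Genes called lower numbered 1326 of 13334 under DESeq2 size factors in edgeR and 1297 of 13334 under limma-voom. They were 1071 of 10287 under the 5 CPM minimum and 671 of 11665 under DESeq2. Taking out the length and GC trend left 911 lower among 13334 genes. A count of 0 among 6 to 8 tested members does not stand out from such shares. Over all genes, 2874 calls became 1639 with DESeq2 (968 higher and 671 lower) and 0 when every gene with a read was tested (0 higher and 0 lower). In that fit 4113 of 17242 genes had an unadjusted edgeR p under 0.05, and the prior degrees of freedom were 3.23 against 11.8. Leaving out a null tube gave values without a test. The median of the members was then 0.078 to 0.28, and Lfng, at -0.45 in the main test, was -0.83 without null tube 1 and 0.028 without null tube 2. Heyl fell to 0.73 without null tube 1. Of 61 values of the 8 tested members under the alternatives, 60 kept their direction. All of them come from the same 3 libraries as the main test, so this count is no independent support. Values near 0 are counted as kept, such as Hes6 at 0.0017 and Nrarp at -0.0085 without null tube 1. No paired analysis was possible because the groups share no replicate number. Heyl and Lfng, with 11 to 112 reads per library, are limited by depth.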

Other observations

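Among 16 corepressors that hold Notch targets down with RBPJ or with Hes and Hey proteins, 1 rose and 2 fell. After removal of the length and GC trend 0 rose and 3 fell, the third faller being Ctbp1 (-0.67, edgeR BH-adjusted p = 0.0246). Ctbp2, a corepressor, had 121 and 148 CPM in the null tubes against 230 CPM in the wild-type tube (log2 fold change -0.77 ± 0.18, SE; edgeR BH-adjusted p = 0.0113). Tle4, a Groucho protein of the kind that Hes repressors recruit, had 176 and 189 reads against 336 (-0.92 ± 0.23, SE; edgeR BH-adjusted p = 0.0137; DESeq2 adjusted p = 0.0959). The other Groucho genes Tle1, Tle2 and Tle3 had log2 fold changes of -0.04, -0.07 and 0.30 and did not pass.

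Of 15 tested genes of Notch ligand and receptor uptake and turnover, 3 rose and 0 fell. Mib2, a ubiquitin ligase of Notch ligands, had 358 and 248 reads in the null tubes against 88 (log2 fold change 1.75 ± 0.31, SE; edgeR BH-adjusted p = 0.00237), while its relative Mib1, the ligase that cardiac Notch signalling is known to need, had 17.7 and 13.5 CPM against 10.8 CPM and did not pass (0.53 ± 0.28, SE; edgeR BH-adjusted p = 0.194). The Notch inhibitor genes Numb and Numbl rose by 0.87 ± 0.29 and 0.90 ± 0.27 (SE; edgeR BH-adjusted p = 0.0496 and 0.0307), and neither passed with DESeq2 (adjusted p = 0.227 and 0.137). After removal of the trend 1 of the 15 rose and 1 fell: Numb and Numbl stood at 0.91 and 0.38 (edgeR BH-adjusted p = 0.0528 and 0.354), and Dtx2 was lower (-0.68, edgeR BH-adjusted p = 0.0499). Dtx1, a Notch target in lymphocytes, had 0, 1 and 1 reads.

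Of 15 neural markers, 4 were tested and 2 rose, the progenitor genes Sox3 (115 and 84 reads against 28) and Nes (2491 and 2660 against 1403), and Nes is also made in embryonic heart muscle and endothelium. Nes lost its call after removal of the trend (0.51, edgeR BH-adjusted p = 0.0771). Both null tubes lay above the wild-type tube for 2 of the 15 and below it for 5, and those below had too few reads for the test. Among them the neural crest gene Sox10 had 0 and 1 reads in the null tubes against 11. Sox1, Pax3 and Foxd3 had 0 reads in all 3 libraries. The 8 presomitic and somite markers summed to 57, 32 and 43 reads. Of 12 genes listed as markers of foregut endoderm, a tissue that also makes Hes1, 10 were tested, of which 0 rose and 8 fell. The 12 summed to 39 and 89 reads in the null tubes against 774 in the wild-type tube, where Afp had 271 and Ttr 187. Nkx2-1 and Shh had 1 to 8 reads per library and were not tested, and Foxa2 and Cdh1 did not pass. The marker with the smallest p was Afp, a yolk sac and liver gene, at 0.0742 and 0.290 CPM against 20.4 CPM. The list thus does not tell foregut from other endoderm. Hes1 had 446, 446 and 580 reads in the same libraries, and the part of the endoderm in its level was not tested.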
